A study of Mus musculus with 6 samples.

Results

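The genes examined here encode protein kinase A, the main kinase activated by cyclic AMP, and the small proteins that inhibit it. The 9 genes were chosen by symbol: the catalytic subunit genes Prkaca and Prkacb, the regulatory subunit genes Prkar1a, Prkar1b, Prkar2a and Prkar2b, and the inhibitor genes Pkia, Pkib and Pkig. Every probe carrying one of these symbols in the platform annotation was taken, which gave 21 of the 45281 probes on the array and 9 of the 19057 genes with a single symbol. The cells were LβT2, a mouse line with features of pituitary gonadotropes that derives from a pituitary tumour of a transgenic mouse, listed with the strain CB6F1/J. It is a tumour line grown without the other cell types of the pituitary. All cells had been transfected for 48 h, 3 samples with Gas siRNA and 3 samples with scrambled siRNA as the control, and total RNA of each sample was read on 1 Illumina mouse whole-genome array. Gas was read as Gs alpha, the G protein subunit encoded by Gnas that stimulates adenylyl cyclase, and the comparison therefore asks whether the transcripts of the kinase downstream of cyclic AMP differed when Gnas transcript was reduced.

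In the resting holoenzyme, a dimer of regulatory subunits holds a pair of catalytic subunits inactive. Cyclic AMP binds the regulatory subunits and frees the catalytic ones, which phosphorylate, among many proteins, the transcription factor CREB in the nucleus. Type I holoenzymes contain the subunits of Prkar1a or Prkar1b and are largely soluble, and type II holoenzymes contain those of Prkar2a or Prkar2b and are mostly held at membranes and organelles by A-kinase anchoring proteins. The inhibitor proteins of the Pki family bind free catalytic subunit as pseudosubstrates and carry it out of the nucleus. In gonadotropes, cyclic AMP and protein kinase A act beside the protein kinase C pathway downstream of the gonadotropin-releasing hormone receptor.

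CREB binds the cyclic AMP response element, TGACGTCA, or its shorter half-sites TGACG and CGTCA, so these letters were looked for in the RefSeq promoter windows (GRCm38.p6) of the genes, from 250 bases before to 50 bases after each annotated start. The search covered both strands, since the full element reads the same on either and the half-sites are reverse complements of each other, and a half-site inside a full element was not counted again. Of the 9 genes 8 had windows, 24 in all, and 6 of these 8 genes held a full element or a half-site, against 23% of the 27025 genes with a window. These shares per gene are not alike, because the 8 genes had more windows each than the 27025 genes, which had 32851 windows. Per window the share was 8 of 24, against 20.8% of all windows. The full element was found for 1 of the 8 genes, Prkar1a, against 2.03% of the 27025 genes. It lay in 2 of the 24 windows, which overlap and share the same site, against 1.79% of all 32851 windows. The following stretches of 30 bases are shown because they carry the Prkar1a element and, for comparison, a half-site of each catalytic subunit gene and of Prkar2a, with the matched letters in capitals.
Prkar1a: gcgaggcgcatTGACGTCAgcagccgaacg
Prkaca: gtctgcaactcgCGTCActcatccaggagc
Prkacb: ggggcttgaccgCGTCActtccggcgcgcc
Prkar2a: cgcggccgcgtgCGTCAcaacccgggcgcc
The Prkar1a stretch lies at chr11:109650889-109650918 on the plus strand, with the element beginning 49 bases before one of the annotated starts. The Prkaca stretch is chr8:83972846-83972875 on the plus strand, with its half-site 120 bases before the start. For Prkacb the stretch is chr3:146813031-146813060 on the minus strand, 102 bases before the start, and for Prkar2a it is chr9:108692127-108692156 on the plus strand, 4 bases before the start. The 2 windows of Prkar2b held neither form. These are matches of letters and not measured binding sites.

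Of the 21 probes, 12 were above the background of their arrays and covered 8 of the 9 genes, as the plot of all probes by intensity shows. The background bound, an intensity of 143 to 144, was the 95th percentile of background estimated for each array, and a probe was kept if it exceeded the bound on at least 3 of the 6 arrays. All 12 kept probes exceeded it on all 6 arrays, so none was kept through only 1 of the groups. The 9 other probes had intensities from 108 to 165. Brightness depends on each probe's own hybridisation, so the levels of different genes were not set against each other.

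**Figure D1:**
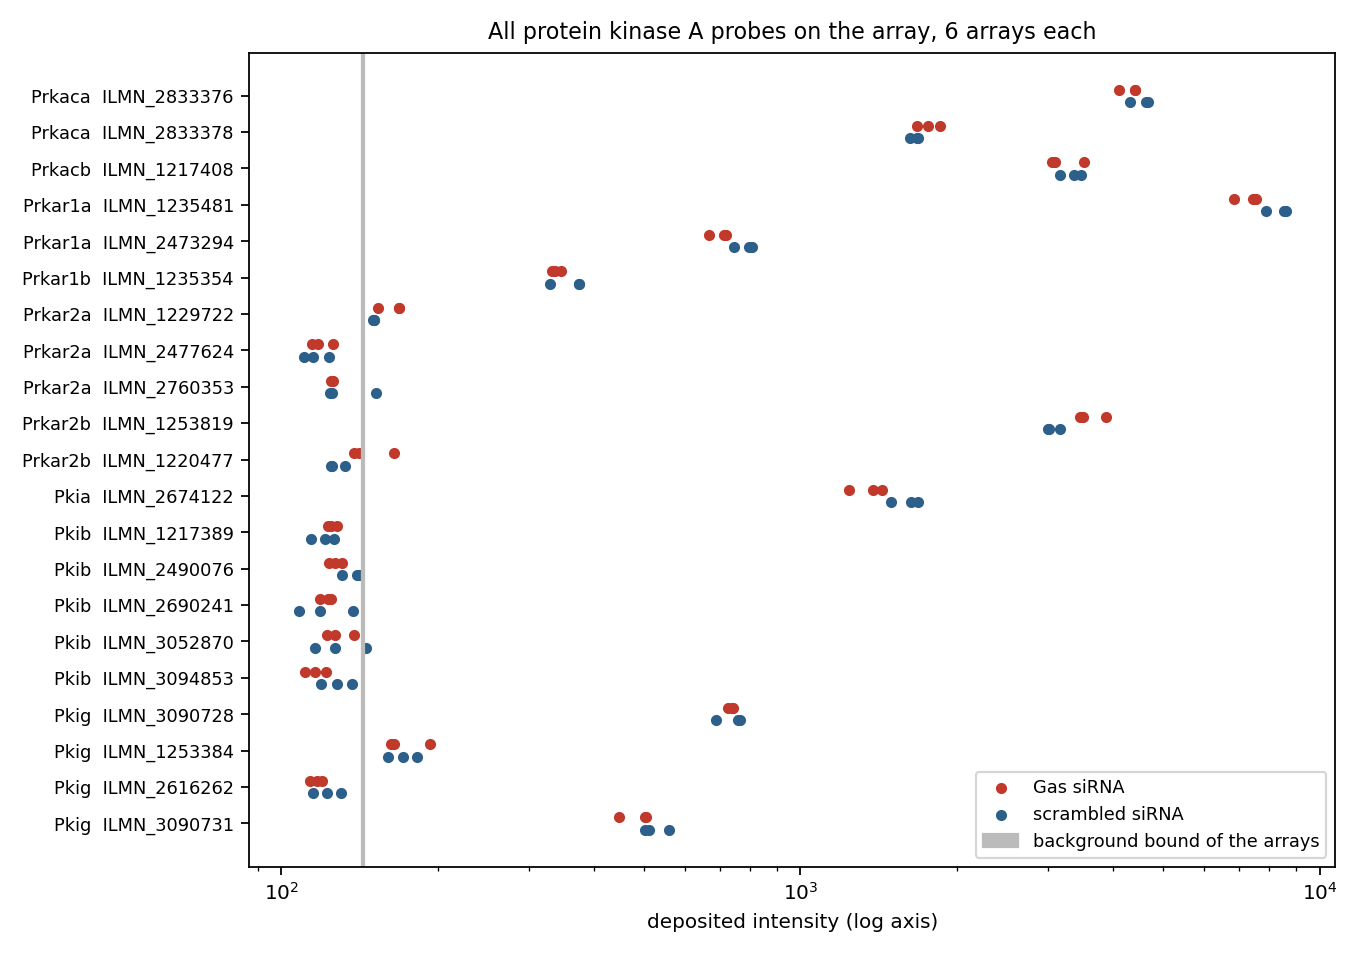
Deposited intensity (log axis) of each protein kinase A probe on the 3 Gas siRNA arrays (red, upper points) and the 3 scrambled siRNA arrays (blue, lower points), with the background bound of the arrays in grey. All readings of the 5 Pkib probes lie below the bound except 1, at 146 on a scrambled siRNA array, while Prkaca, Prkacb, Prkar1a, Prkar1b, Prkar2b, Pkia and Pkig each have at least 1 probe well above it.

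Gnas served as the check of the labels. Its brightest probe (ILMN_2632206) read 568, 608 and 598 in intensity with Gas siRNA, against 3697, 3579 and 3864 with scrambled siRNA. Every Gas siRNA array was thus far below every scrambled siRNA array, and the log2 change was -2.91 (SE 0.0868, limma adjusted p = 6.08e-20). A second bright Gnas probe (ILMN_1223437) fell by 3.01, while the 5 other kept probes, which lay near background, differed by -0.90 to 0.20 and did not pass. With all kept probes averaged the Gnas change was -1.12 (adjusted p = 0.000504). Correlations between arrays across the kept probes ranged from 0.989 to 0.991, and no array stood apart. Of the 10 listed gonadotrope markers 8 were above background, among them Cga, Lhb, Gnrhr and Nr5a1, while the Fshb probe was not above background on any array. None of the 8 passed in limma. Pitx1, a pituitary transcription factor, had the smallest p of them, with a log2 difference of 0.28 (unadjusted p = 0.0134, adjusted p = 0.291) and groups that did not overlap. Its part in the results was not tested. Of the 7 listed markers of other pituitary hormone cells only Gh was kept, with a log2 difference of -0.45 (adjusted p = 0.565), and Prl, Pomc and Tshb were above background on 0 arrays. Of the 10 listed folliculostellate, stromal, endothelial and blood cell markers only Pecam1 and Kdr were kept, with log2 differences of 0.01 and 0.00. Another kept Pecam1 probe differed by -0.30 (limma unadjusted p = 0.0435, adjusted p = 0.480). Kdr lay near background, above the bound on 2 of the 3 arrays of each group.

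None of the 8 measured protein kinase A genes changed with Gas siRNA in the limma fit over all 21535 kept probes, where 1.71% of the 11442 measured genes did. The smallest adjusted p among the 12 kept probes was 0.140, for Prkar2b. At an unadjusted p under 0.05 there were 3 of the 8 genes, Prkar2b, Pkia and Prkar1a, against 11.3% of all genes. The 2 groups of arrays did not overlap for 4 of the 8 genes, these 3 and Prkar2a, against 16.1% of all genes. Lower without overlap were Prkar1a and Pkia, 2 of the 8, against 8.38% of all genes. Of the 8 log2 differences 6 were negative and 2 positive, with a median of -0.067, where the median over all genes was 0.00. The median size of the difference, regardless of sign, was 0.16 for these genes and 0.11 for all genes. Nothing in the labels ties the 3 replicates of a group to different cultures. The p-values therefore cover only the variation among these 6 samples, part of which may be technical. As RNA of whole cultures was measured, fewer cells expressing a gene and less RNA per cell cannot be told apart.

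**Figure D2:**
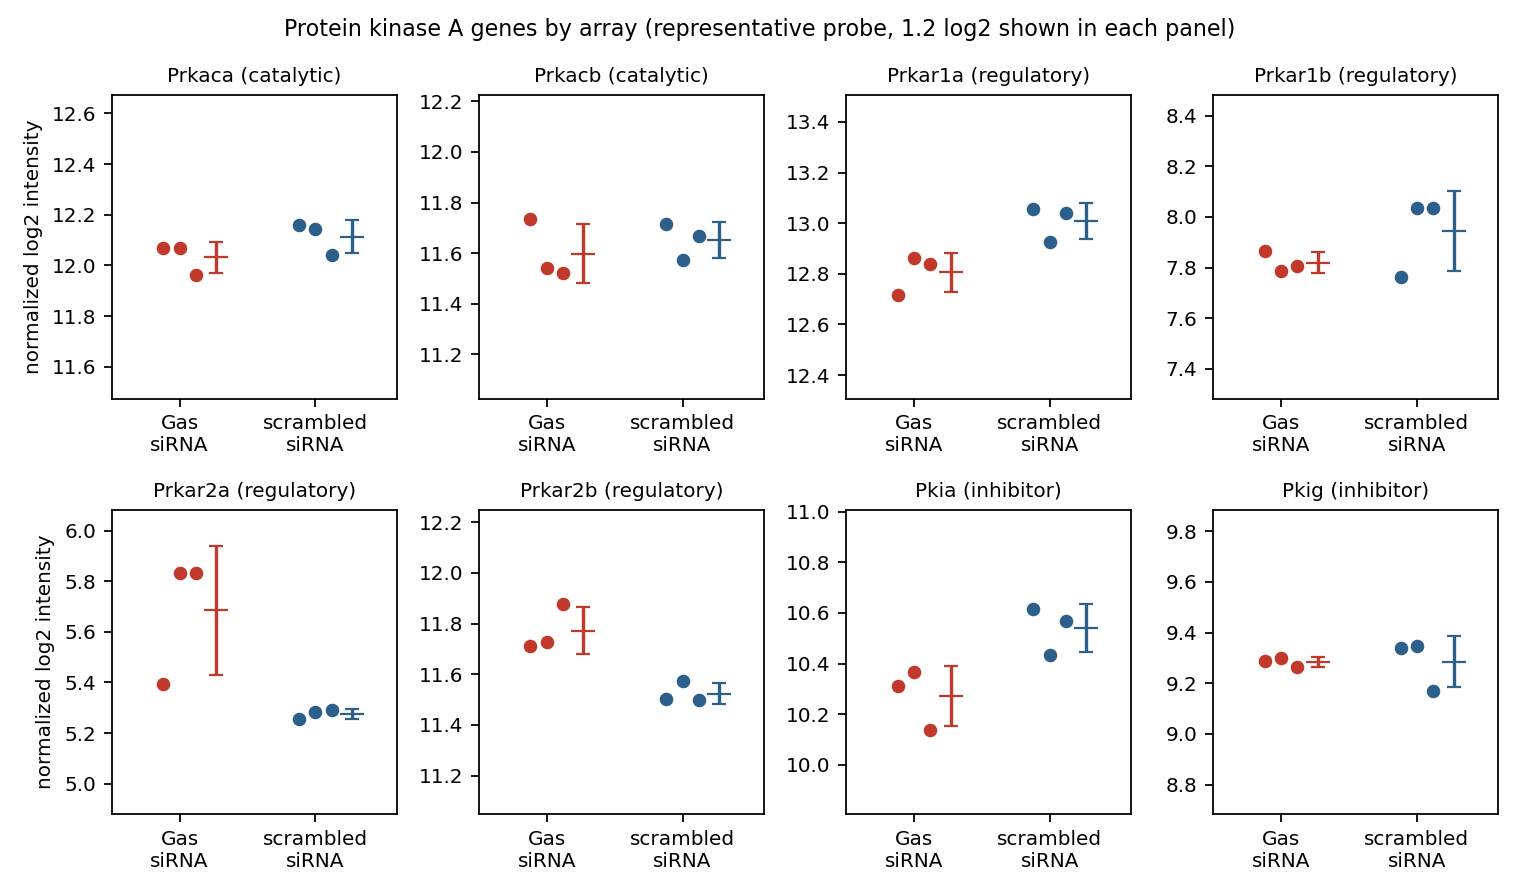
Normalized log2 intensity of the representative probe of each measured gene on the 3 Gas siRNA arrays (red) and the 3 scrambled siRNA arrays (blue), with the group mean and SD (n = 3) beside the points. Each panel spans the same range of 1.2 log2. The groups do not overlap for Prkar1a, Prkar2a, Prkar2b and Pkia, and overlap for the other 4 genes.

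Neither catalytic subunit gene passed the test, and for both the groups overlapped. Prkaca, which encodes the ubiquitous catalytic alpha subunit, had intensities of 4403, 4409 and 4101 with Gas siRNA, against 4682, 4631 and 4321 with scrambled siRNA (ILMN_2833376). The highest Gas siRNA arrays lay above the lowest scrambled siRNA array, so the groups overlapped. The normalized log2 intensity averaged 12.03 ± 0.061 with Gas siRNA and 12.11 ± 0.064 with scrambled siRNA (SD, n = 3 each), a difference of -0.08 that did not pass (limma adjusted p = 0.795). The 95% interval of this difference ran from -0.23 to 0.07, that is from 0.852 to 1.05 times the scrambled siRNA level. A second Prkaca probe against the same transcript (ILMN_2833378) had a difference of the opposite sign, 0.09 (adjusted p = 0.794), with 1680, 1857 and 1763 with Gas siRNA, against 1678, 1684 and 1625 with scrambled siRNA. With both probes averaged the Prkaca difference was 0.0060, and without Gas siRNA replicate 3 that of the first probe was -0.045.

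Prkacb encodes the catalytic beta subunit, whose transcripts differ in their first exons and which is prominent in brain. Its 1 probe (ILMN_1217408) read 3517, 3091 and 3051 with Gas siRNA, against 3470, 3159 and 3364 with scrambled siRNA. One Gas siRNA array was the highest of all 6 and the other Gas siRNA arrays were the lowest. The log2 difference was -0.05 (95% interval -0.22 to 0.11, limma adjusted p = 0.893), which corresponds to a level between 0.861 and 1.08 times that with scrambled siRNA. It depended on single arrays, at -0.12 without Gas siRNA replicate 1 and -0.014 without Gas siRNA replicate 3, and did not pass in either case.

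The regulatory subunit genes differed more between the groups, in opposite directions, and none passed the test. Prkar1a encodes the type I alpha subunit, the widely expressed regulatory subunit whose loss in human causes Carney complex. Its brighter probe (ILMN_1235481) read 6847, 7554 and 7431 with Gas siRNA, against 8616, 7892 and 8545 with scrambled siRNA. All Gas siRNA arrays were below all scrambled siRNA arrays. Normalized log2 intensity was 12.81 ± 0.077 with Gas siRNA and 13.01 ± 0.071 with scrambled siRNA (SD, n = 3 each). The difference of -0.20 (SE 0.0705, 95% interval -0.35 to -0.06) had an unadjusted p of 0.00784 and did not pass (limma adjusted p = 0.224). The second Prkar1a probe (ILMN_2473294), designed on a cDNA clone that is not among the RefSeq transcripts of the gene, read 720.0, 713 and 665 with Gas siRNA, against 744, 795 and 808 with scrambled siRNA. Again no Gas siRNA array reached the scrambled siRNA arrays, and the log2 difference was -0.19 (adjusted p = 0.551), close to that of the first probe. Both probes were read on the same 6 samples and are not independent replicates.

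Prkar2b encodes the type II beta subunit, which is abundant in brain, adipose and endocrine tissue. The kept probe (ILMN_1253819) read 3461, 3505 and 3876 with Gas siRNA, against 3009, 3158 and 3004 with scrambled siRNA. Here all Gas siRNA arrays were above all scrambled siRNA arrays, the reverse of Prkar1a. Normalized log2 intensity averaged 11.77 ± 0.092 with Gas siRNA and 11.52 ± 0.042 with scrambled siRNA (SD, n = 3 each), a difference of 0.25 (SE 0.0771, 95% interval 0.09 to 0.41) or 1.19-fold. The unadjusted p was 0.00320, the smallest of the 12 kept probes, and the adjusted p was 0.140 in limma. The second Prkar2b probe (ILMN_1220477), designed on the same transcript, was above background on 1 of the 3 Gas siRNA arrays and on 0 of the 3 scrambled siRNA arrays, with 138, 165 and 141, against 132, 125 and 125. It was not tested.

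Prkar2a encodes the type II alpha subunit, and its measurement was the least certain. The probe above background (ILMN_1229722) lay just over the bound, at 154, 169 and 169 with Gas siRNA, against 150.0, 151 and 151 with scrambled siRNA. It was designed on a cDNA clone, and both probes designed on the RefSeq transcript of Prkar2a were near background, with 1 of their 12 readings above the bound. The Gas siRNA arrays were all above the scrambled siRNA arrays, but the log2 difference of 0.41 had a wide error (SE 0.217, 95% interval -0.04 to 0.85, limma adjusted p = 0.557). Without background correction the difference was 0.12, which differs from the reported value by more than 1.5 times.

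Prkar1b, which encodes the type I beta subunit found mainly in neural tissue, was measured by 1 probe (ILMN_1235354). It read 345, 333 and 336 with Gas siRNA, against 329, 374 and 374 with scrambled siRNA. The first scrambled siRNA array was the lowest of all 6, so the groups overlapped. The log2 difference was -0.12 (95% interval -0.39 to 0.14, adjusted p = 0.828). It was -0.22 without scrambled siRNA replicate 1 and -0.079 without either of the other scrambled siRNA arrays.

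**Figure D3:**
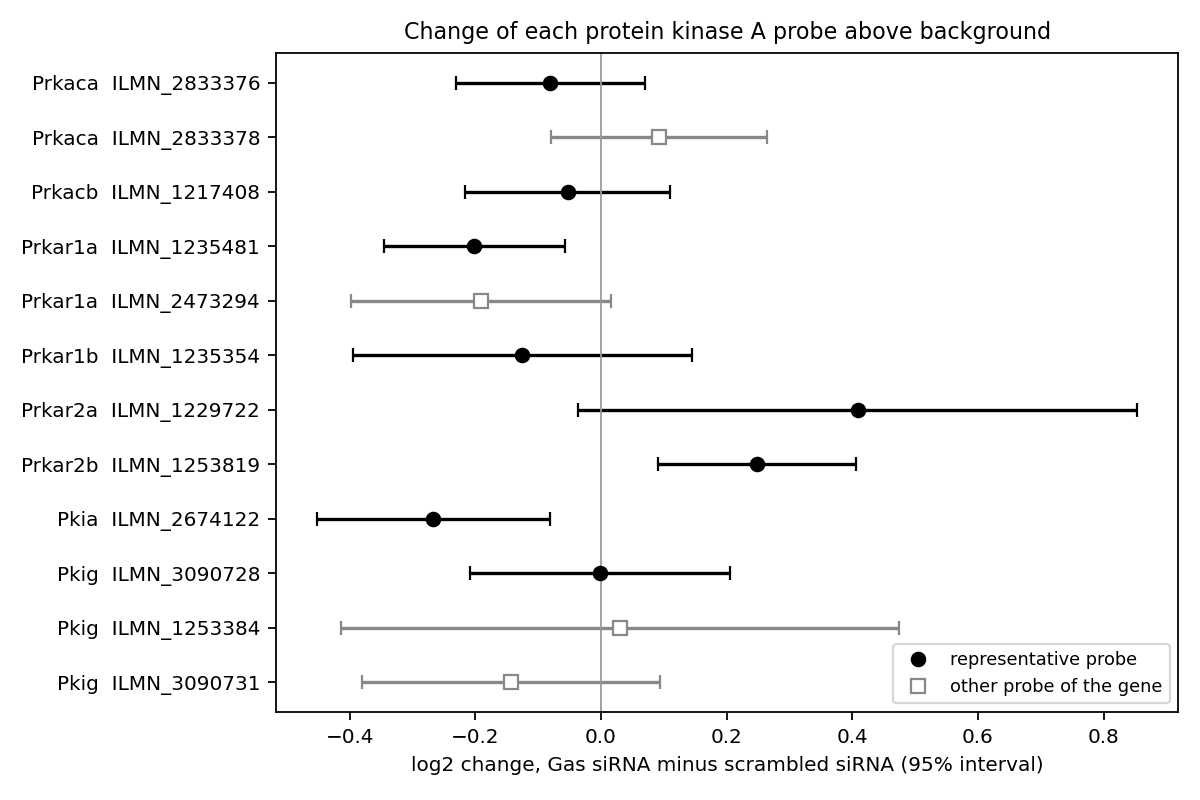
Log2 change, Gas siRNA minus scrambled siRNA, with its 95% interval from the limma fit, for each of the 12 protein kinase A probes above background. Filled circles are the representative probes of the genes and open squares their other probes. The intervals of Prkar1a (-0.35 to -0.06), Pkia (-0.45 to -0.08) and Prkar2b (0.09 to 0.41) leave out 0 before adjustment, and none passed after adjustment over all probes.

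Of the inhibitor genes, Pkia and Pkig were measured and did not pass, and Pkib was not above background. Pkia encodes the alpha inhibitor, a potent inhibitor of catalytic subunit known from muscle and brain. Its 1 probe (ILMN_2674122) read 1382, 1434 and 1239 with Gas siRNA, against 1681, 1495 and 1631 with scrambled siRNA. No Gas siRNA array reached the lowest scrambled siRNA array, though the nearest values, 1434 and 1495, lay close together. Normalized log2 intensity was 10.27 ± 0.12 with Gas siRNA and 10.54 ± 0.094 with scrambled siRNA (SD, n = 3 each). The difference of -0.27 (SE 0.0906, 95% interval -0.45 to -0.08), or 0.831 times the level with scrambled siRNA, had an unadjusted p of 0.00642 and an adjusted p of 0.205 in limma.

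Pkig encodes the gamma inhibitor, the most widely expressed member of the family. The brightest of its 4 probes (ILMN_3090728) read 737, 742 and 726 with Gas siRNA, against 759, 763 and 687 with scrambled siRNA. The Gas siRNA arrays lay within the range of the scrambled siRNA arrays, and the log2 difference was 0.00 (95% interval -0.21 to 0.21, adjusted p = 0.997), or between 0.866 and 1.15 times the level with scrambled siRNA. The other kept Pkig probes had differences of -0.14 (ILMN_3090731, adjusted p = 0.759) and 0.03 (ILMN_1253384, adjusted p = 0.980), and the probe designed on the transcript NM_011106 was above background on 0 arrays.

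Pkib, the beta inhibitor, known from testis and brain, was not detectable on these arrays. Its 5 probes, which were designed on 4 RefSeq transcripts, had intensities from 108 to 146, and 1 of the 30 readings was above the bound, on a scrambled siRNA array. No level or difference of Pkib could be given.

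The balance between catalytic and regulatory transcripts was followed within each array, as the mean log2 intensity of the 2 catalytic genes minus that of the 4 regulatory genes. Since probes of different genes are not on 1 scale, only the difference of this value between the groups can be read. It was 2.48, 2.25 and 2.15 with Gas siRNA, against 2.54, 2.40 and 2.39 with scrambled siRNA. The first Gas siRNA array lay within the range of the scrambled siRNA arrays and the other Gas siRNA arrays below it. The mean difference was -0.15, with 2.30 ± 0.17 with Gas siRNA and 2.44 ± 0.086 with scrambled siRNA (SD, n = 3 each), and the groups overlapped. It was -0.08 without background correction. Leaving out Prkar2a, whose probe lay closest to background, gave -0.04, and this setting was chosen with the values in view. The difference was -0.24 without Gas siRNA replicate 1 and -0.08 without Gas siRNA replicate 3. The balance is a description and was not tested, and the members were chosen with results of these data known.

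Within the regulatory genes, the opposite differences of Prkar1a and Prkar2b gave a larger shift between the type I and type II subunits, a pair picked after their values were seen and given as a description. The log2 intensity of Prkar1a minus that of Prkar2b was 1.01, 1.13 and 0.96 with Gas siRNA, against 1.55, 1.35 and 1.54 with scrambled siRNA. All Gas siRNA arrays were lower, by 0.45 on average. Neither gene's groups overlapped, and their differences had opposite signs. The separation of the pair therefore follows from that choice and is no separate result. Of the same kind, Prkaca minus Pkia was 1.76, 1.70 and 1.82 with Gas siRNA, against 1.54, 1.71 and 1.47 with scrambled siRNA, a mean difference of 0.19 with overlapping groups. Prkacb minus Pkia differed by 0.21 without overlap, and Prkaca minus Prkacb by -0.03 with overlap.

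**Figure D4:**
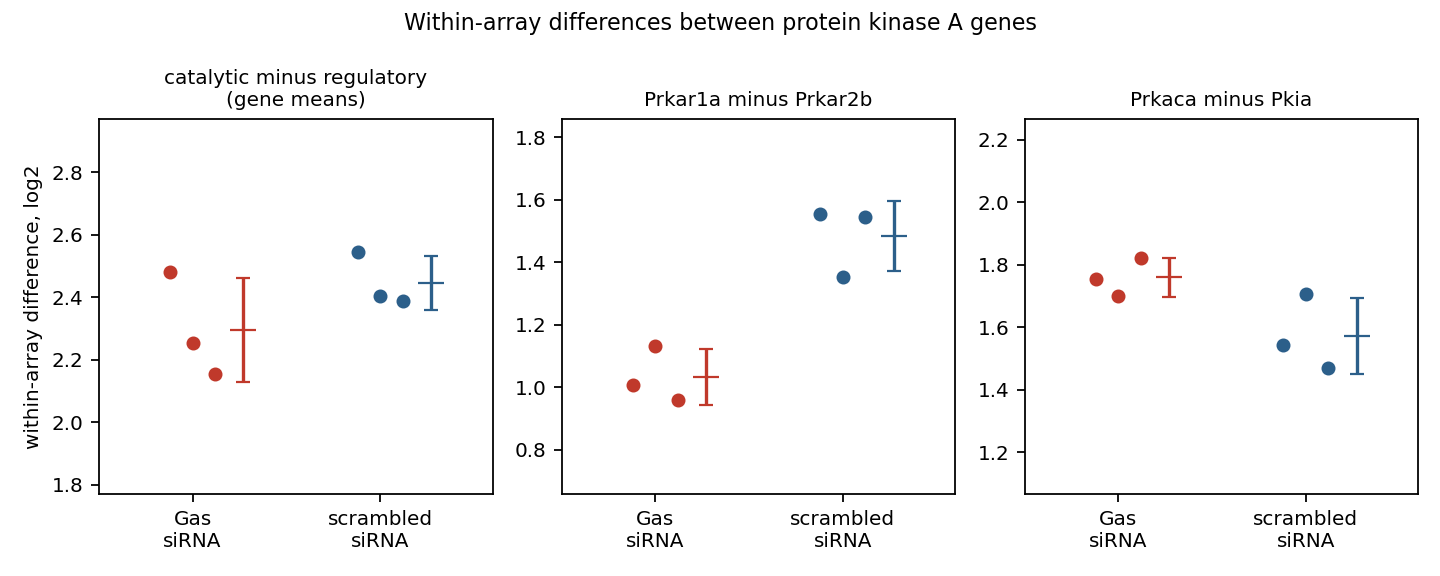
Within-array differences in normalized log2 intensity on the 3 Gas siRNA arrays (red) and the 3 scrambled siRNA arrays (blue), with the group mean and SD (n = 3). Catalytic minus regulatory gene means and Prkaca minus Pkia overlap between the groups. Prkar1a minus Prkar2b is lower on all Gas siRNA arrays, which follows from picking this pair after its values were seen.

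For Prkar2b, the gene with the smallest p, the genes with the most similar values over the 6 arrays were looked up by Pearson correlation, as a description. These were Pramel36 (r = 0.999), Stx18, a syntaxin of the endoplasmic reticulum (r = 0.986), and Doc2a, a calcium sensor of vesicle release (r = 0.985). Pramel36 lay near background, at a normalized log2 intensity of 5.20 ± 0.23 with Gas siRNA and 4.64 ± 0.089 with scrambled siRNA (SD, n = 3 each). Its scrambled siRNA arrays were below the bound, so it was kept only through the Gas siRNA arrays. With only 6 arrays, 38 genes had a correlation above 0.95 with Prkar2b. The log2 differences of Pramel36, Stx18 and Doc2a were 0.56, 0.28 and 0.59, and of these Doc2a passed (limma adjusted p = 0.0313). The genes were picked for following Prkar2b, whose groups did not overlap, so their positive differences follow from that choice and are no separate result.

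The genes around protein kinase A in the pathway were then read from lists of their functions. The lists were chosen with earlier results of these data known, so their counts against all genes are descriptions. Of 10 adenylyl cyclase genes 3 were above background and 0 changed. The smallest p values belonged to Adcy7 (0.11, adjusted p = 0.916) and Adcy9 (-0.10, 0.934), both dim, with group means from 5.48 to 6.14. Of 16 phosphodiesterase genes that degrade cyclic AMP 11 were measured and 1 fell, Pde4d, by 0.97 on its brightest probe (adjusted p = 0.00259), against 0.979% of all genes that fell. That probe was dim, at a normalized log2 intensity of 5.84 ± 0.078 with Gas siRNA and 6.81 ± 0.12 with scrambled siRNA (SD, n = 3 each). The other measured phosphodiesterase genes were dim too, with group means from 4.83 to 6.59. Without background correction the Pde4d difference was -0.41, still past the threshold. The other kept Pde4d probes differed by -0.12 and 0.03 and did not pass. The median log2 difference of the phosphodiesterase list was 0.09. This median includes Pde1c (0.28), which was above the bound on 3 Gas siRNA arrays and 0 scrambled siRNA arrays. Pde1c was thus kept only through the group where it was higher.

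A-kinase anchoring proteins tether the regulatory subunits, and 16 of the 24 listed were measured. None passed in limma, 1 had an unadjusted p under 0.05 (11.3% of all genes), and the median difference was -0.02. That gene was Akap2, which had normalized log2 intensities of 9.69 ± 0.12 with Gas siRNA and 9.91 ± 0.059 with scrambled siRNA (SD, n = 3 each), a difference of -0.22 (adjusted p = 0.411) without overlap. Its other kept probes differed by -0.31 and -0.32. Akap5, an anchor at the plasma membrane, followed with -0.17 (adjusted p = 0.746).

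Of the proteins that turn over regulatory subunits or oppose the kinase, 11 of 11 were measured and 0 passed in limma, with 1 at an unadjusted p under 0.05 (11.3% of all genes) and a median of -0.08. The smallest p values were those of the protein phosphatase catalytic genes Ppp1cb (-0.31, adjusted p = 0.349) and Ppp1ca (-0.14, 0.555). Another kept Ppp1cb probe differed by -0.06, and other kept Ppp1ca probes by 0.11, -0.06 and -0.13. Pja2, a ubiquitin ligase of regulatory subunits, differed by -0.10 (adjusted p = 0.760). Prkx, a close relative of the catalytic subunits, differed by -0.06 (adjusted p = 0.895) within a list of 9 measured related kinases. In that list 1 gene rose and 8 did not pass, against 0.734% of all genes that rose. Prkg1, the cyclic GMP-dependent kinase of the same kinase group, rose by 0.45 (SE 0.0988, adjusted p = 0.0146), with 9.87 ± 0.13 with Gas siRNA and 9.43 ± 0.068 with scrambled siRNA (SD, n = 3 each). Its other kept probes differed by 0.22 and 0.29 and did not pass. Prkg1 did not pass without Gas siRNA replicate 2 (0.151), scrambled siRNA replicate 2 (0.0675) or scrambled siRNA replicate 3 (0.0616), without the intensity trend (0.290) or with probes averaged (0.406).

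Cyclic AMP has effectors other than protein kinase A. Of 13 listed channel, exchange factor and Popeye domain genes 6 were measured and 0 passed in limma, while 4 had an unadjusted p under 0.05 (11.3% of all genes), and the list had a median difference of 0.19. The smallest p values were those of the Popeye domain genes Bves (0.28, adjusted p = 0.327) and Popdc3 (0.40, 0.336). Another kept Bves probe differed by 0.11.

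In the nucleus, 11 of 12 genes of the CREB family, its coactivators and the kinases that restrain them were measured. None passed, 3 had an unadjusted p under 0.05 (11.3% of all genes), and the median difference was -0.02. Crtc2, a coactivator of CREB, differed by 0.64 (adjusted p = 0.256) and Ep300, a histone acetyltransferase that CREB recruits, by -0.30 (0.258). Crtc2 was dim, at 6.02 ± 0.45 with Gas siRNA and 5.39 ± 0.27 with scrambled siRNA (SD, n = 3 each), and its groups overlapped. Of 23 listed CREB target genes 15 were measured, of which 4 fell and 11 did not pass, where 0.979% of all genes fell. The list was chosen with earlier results of these data known, so this count is a description and no test. The 4 were Inha, the inhibin alpha subunit gene (-1.78, adjusted p = 1.14e-10), Pde4d, Vgf (-0.74, 0.00303) and Per2 (-0.51, 0.0191). Other kept probes of Vgf and Per2 differed by -0.23 (limma adjusted p = 0.841) and -0.20 (0.632) and did not pass. The calls of Pde4d, Vgf and Per2 were lost with probes averaged (0.489, 0.235 and 0.146) and without the intensity trend (0.0581, 0.275 and 0.227). Per2 also did not pass without Gas siRNA replicate 1 (0.0818), Gas siRNA replicate 2 (0.0819), scrambled siRNA replicate 1 (0.0767) or scrambled siRNA replicate 3 (0.101). The median difference of the target list was -0.05. Of the 15 measured targets, Pde4d, Cga, Crem and Egr1 are also in other lists used here.

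**Figure D5:**
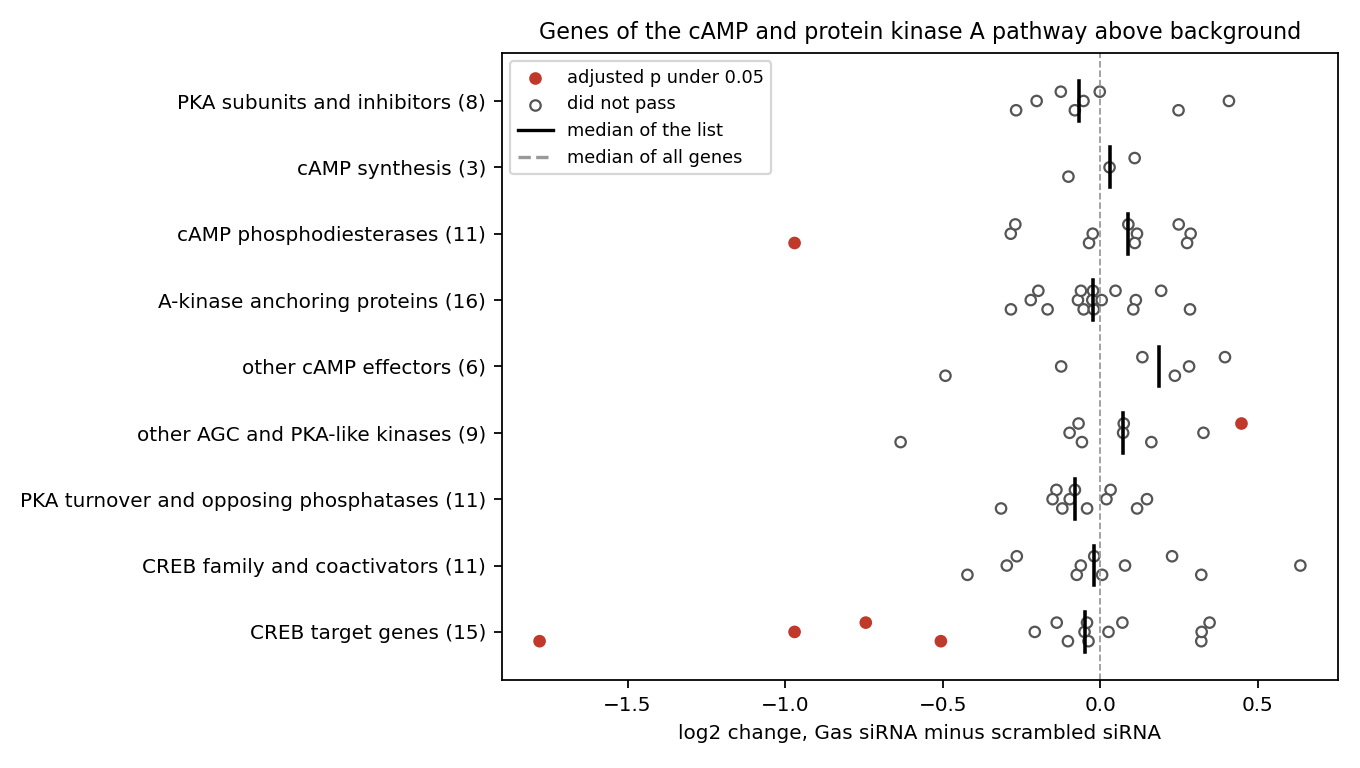
Log2 change, Gas siRNA minus scrambled siRNA, of the measured genes of each list, with the number measured in parentheses, the median of the list as a black bar and the median of all genes as a dashed line. Filled points passed at an adjusted p under 0.05: Pde4d (in both lists that hold it), Prkg1, Inha, Vgf and Per2. All 8 protein kinase A genes lie between -0.27 and 0.41 and did not pass. The lists were chosen with earlier results of these data known.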

How the data were processed

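The starting point was the linear intensity of each probe on each array, as deposited by the authors. Per the submitters' processing notes BeadStudio was used (no version), while how it normalized the arrays is not stated. Sorted columns agreed within 1.67% below the brightest 10 probes, as after quantile normalization, and no background had been subtracted. A table of signals before normalization has 24 columns that match no sample's labels and was not used.

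Background mean and SD were estimated for each array from the mode of its log2 intensities and the values below it. Normexp with an offset of 16, quantile normalization and log2 followed. A probe above the 95th percentile of background on at least 3 of 6 arrays was kept, and a gene was represented by its brightest kept probe on average over all arrays. Gas siRNA was set against scrambled siRNA in limma 3.58.1 under R 4.3.3 (lmFit, eBayes with intensity trend), with Benjamini-Hochberg adjustment over 21535 probes and a threshold of 0.05. The fit was tested on simulated data. The number of arrays limits the precision.

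All 9 genes are reported with all probes. From each pathway list up to 4 changed genes are named, or the 2 with the smallest p where none changed, and others named were chosen after their values were seen. The 9 genes and the lists were chosen with earlier results of these data known. Symbols come from the platform annotation, and all 9 were found in RefSeq's gene table. Samples sharing a replicate number had correlations of their deviations from the group means of 0.017, 0.060 and 0.096. For samples with different numbers these correlations were mostly negative and ran from -0.081 to 0.023. Some shared variation by number therefore remains possible, and its source was not tested. The reported comparison ignored the numbers, and the replicate block used them. The alternatives were another background correction, scaling, filter, variance model, array weights, averaged probes, a replicate block and leaving out each array.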

Additional observations from a re-analysis of the deposited data

How the results depend on the processing

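The count of protein kinase A genes that changed was 0 in all 15 alternatives, including the fit without the intensity trend and the fit with the replicate number as a block. The differences of Prkacb, Prkar1a, Prkar1b, Prkar2a, Prkar2b and Pkia kept their sign in all 15. The lowest adjusted p values were 0.0778 for Prkar2b, 0.113 for Pkia and 0.153 for Prkar1a, all with the replicate block, under which 290 genes changed in all and which ended no call among the genes tested under it (Gnas, Prkg1, Pde4d, Inha, Vgf and Per2). Prkaca turned to 0.0060 with probes averaged. Pkig turned to 0.0041 with array weights and ranged from -0.060 to 0.030 when single arrays were left out, turning positive without Gas siRNA replicate 3, scrambled siRNA replicate 1 or scrambled siRNA replicate 2. The catalytic minus regulatory difference ranged from -0.24 without Gas siRNA replicate 1 to -0.08 without Gas siRNA replicate 3 when single arrays were left out, and was -0.04 without Prkar2a, a setting added after the data were seen. The count of all changed genes, 196, was 5 without the intensity trend and 115 with probes averaged, and ranged from 104 to 150 with single arrays left out. It was 104 without replicate 3 of scrambled siRNA, and 119 and 114 without replicates 2 and 3 of Gas siRNA. Fewer samples were fitted in these, and for the other changes the cause was not tested. Signal over background limits Prkar2a and left Pkib without a value.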
